A study of Arabidopsis thaliana with 4 samples.

Results

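The WRKY genes encode plant transcription factors, and 51 of them, listed by locus, were examined among 27444 coding genes on the 5 nuclear chromosomes of Arabidopsis thaliana. The list was given by locus and does not hold the whole family, and it was drawn up with earlier results of these data known. All 51 loci were found in the RefSeq gene table with a WRKY name as symbol or synonym. WRKY proteins carry a WRKY domain with a zinc finger that binds W-box elements in promoters. They are best known for switching defence genes on and off after pathogens are sensed, and several also act in senescence, drought, heat and nutrient responses. Group I proteins have a pair of WRKY domains, groups IIa to IIe have a single one and are split by sequence, and group III has another type of zinc finger. RGA is a DELLA protein that holds back growth until gibberellin triggers its breakdown, for which SLY1 is needed, and it acts on chromatin together with transcription factors.

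Chromatin was immunoprecipitated with anti-FLAG beads from whole seedlings grown for 10 days in continuous light. The 4 libraries, 1 per group, were the FLAG-rga11 mutant (labelled Frga11 sly1 dP), the FLAG-RGA wild type (FRGA sly1 dP), the control of the mutant (sly1 dP) and the control of the wild type (RGA sly1 dQ). All 4 labels name sly1, the controls included. The promoters of the tagged constructs and the meaning of dP and dQ are not stated in the labels. The series title places the study on the PFYRE subdomain of DELLA proteins, so the comparison asks which WRKY genes the mutant protein still marked.

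A WRKY gene was called marked when the gene, extended by 1 kb at both ends, held a peak summit. Seedlings were taken whole, so marking in fewer cells and weaker marking per cell cannot be told apart. With 1 library per line no difference between the lines could be tested, and intervals are exact 95% Clopper-Pearson intervals that cover counting error only. The mutant list held 505 peaks and the wild-type list 6116. Both hold only part of the numbered peaks, so absence from a list need not mean that no peak was called. The mean ChIP coverage of the calls was 15.3 fragments per base in the mutant, scaled down to a background of 7.21 for its call, and 14.5 in the wild type. The mutant list names its control otherwise than the labels do, so which library served there is unsettled, and every mutant fold depends on it. Each fold is the authors' ratio of ChIP coverage to the control level of the call at the summit. It ranks a peak only within its own list.

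The mutant marked 5 of the 51 WRKY genes (9.80%, 3.26 to 21.4), against 23 of 51 (45.1%, 31.1 to 59.7) in the wild type. Of all coding genes 1.79% were marked in the mutant and 23.2% in the wild type. All 5 mutant-marked members, WRKY22, WRKY33, WRKY40, WRKY47 and WRKY70, were marked in the wild type too. Over all coding genes 1.32% were marked in both lists. The shares of the listed WRKY genes lay above the background in each list. This was not seen for the 19 WRKY genes outside the list, though their intervals are wide and include the background shares. Of those, 0 were marked in the mutant (0%, up to 17.6%) and 2 in the wild type (10.5%, 1.30 to 33.1). Gene length differed little, with a median of 2147 bp for the members and 2078 bp for all coding genes. Among coding genes with a length within the quartile range of the members, 1.89% were marked in the mutant and 25.4% in the wild type.

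By WRKY group the wild-type marks were spread over every group, and in group IId all 6 members had a wild-type summit. None of the 6 had a mutant summit (0%, up to 45.9%), an interval that includes the 1.79% of all coding genes. The group IId count depended on the threshold, and so did the share of all coding genes. Of the 6, 3 had a wild-type summit among the upper 50% by fold (11.7% of all coding genes). At the coverage of the mutant call it was 2 of 6 (against 7.99%). At a −log10 q of at least 10 it was 1 of 6, and group I had 3 of 9 (against 6.54%). Group I had 1 of 9 marked in the mutant and 5 of 9 in the wild type. Groups IIa and IIb each had the same single gene in both lists, WRKY40 among 3 members and WRKY47 among 6. Group IIc had 0 of 10 in the mutant and 4 of 10 in the wild type, group IIe 1 of 7 in the mutant and 3 of 7 in the wild type, and group III 1 of 10 in the mutant and 3 of 10 in the wild type. The intervals of the groups overlapped, so differences among groups were not resolved at these numbers of genes.

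**Figure D1:**
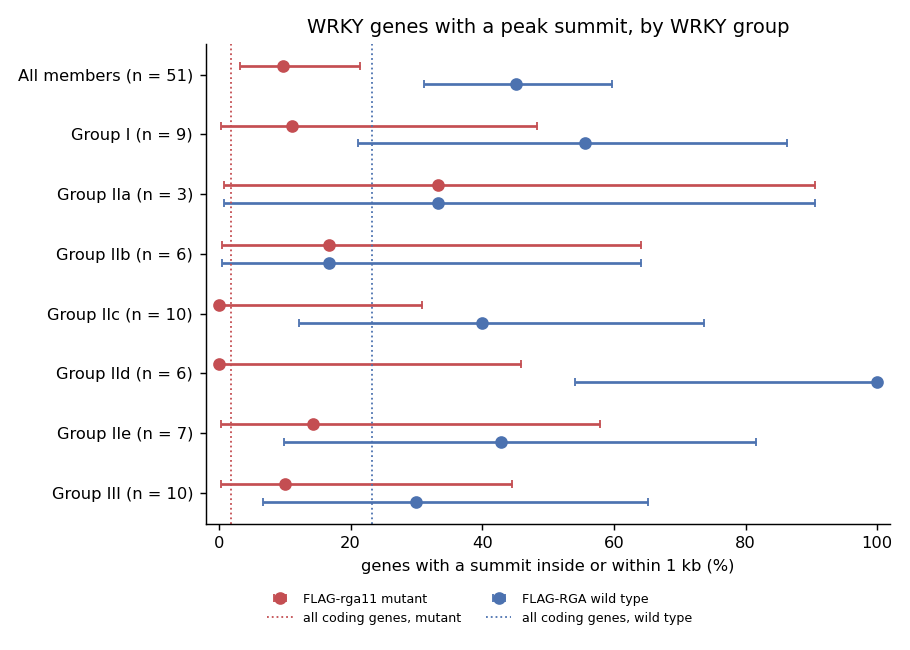
Share of WRKY genes with a peak summit inside or within 1 kb (x axis, percent), for all 51 members and for each WRKY group, with exact 95% intervals as bars; dotted lines give the share over all coding genes, 1.79% in the mutant and 23.2% in the wild type. The mutant points lie at 0 to 33.3% and the wild-type points at 16.7 to 100%, with group IId at 0% in the mutant and 100% in the wild type.

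The 5 genes marked in both lines include well-studied defence regulators, and 7 of their sites were called in both lines. They held 8 mutant summits and 8 wild-type summits within the limit. Taking 1 shared base as overlap, 7 of the 8 mutant peaks (87.5%) met a wild-type peak, and 7 of the 28 wild-type peaks at WRKY genes (25%) met a mutant peak. Over the whole lists 56.6% of mutant peaks and 4.73% of wild-type peaks did so. The higher share at WRKY genes was not seen with the control at most 5 times background in both lists. Then 3 of the 8 mutant peaks (37.5%) overlapped, against 39.8% of all mutant peaks within that limit. Summits of the 7 overlapping mutant peaks lay 1 to 51 bp from the wild-type summit, with a median of 13 bp, against a median of 21 bp over all 286 overlapping mutant peaks.

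WRKY33 (AT2G38470), a group I factor needed for resistance to necrotrophic fungi and for camalexin synthesis, held 3 sites in each line on chromosome 2. The first mutant peak ran from 16108519 to 16108736 with a fold of 4.47, and the wild-type peak from 16108483 to 16108841 with a fold of 1.78. The second site spanned 16109009 to 16109792 in the mutant and 16109035 to 16109975 in the wild type, and the fold was 2.68 in the mutant and 2.17 in the wild type. At the third site the mutant summit was at 16110314 (fold 2.69) and the wild-type summit at 16110301 (fold 1.82). The 3 sites lay inside the gene, 423, 1035 and 452 bp from the nearer end by the mutant summits. The first mutant peak ranked near the top of its list (percentile 98.7 by fold), while the wild-type peak at the same place ranked low in its own (percentile 7.95).

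WRKY40 (AT1G80840), a pathogen-induced group IIa factor that modulates basal defence, had mutant peaks at both ends of the gene on chromosome 1. The peak with its summit at 30383898 had a fold of 2.44 in the mutant and 1.64 in the wild type, 4 bp apart. The other mutant peak, from 30385030 to 30385318 with a fold of 3.1, had no wild-type peak over it, and the nearest wild-type summit lay 1245 bp away. That peak was the single mutant peak at a WRKY gene with no wild-type partner, and it had the highest −log10 q of the 8 (12.7). Its summit lay inside WRKY40 and within 1 kb of AT1G80850 as well.

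WRKY22 (AT4G01250), a group IIe factor that acts in the response to flagellin, had its mutant peak on chromosome 4 between 523805 and 524147. The fold there was 2.35 in the mutant and 1.36 in the wild type. The summits stood 1 bp apart, and the wild-type fold was close to the lowest of its list (percentile 0.507). A further wild-type peak inside the gene (fold 1.44) had no mutant peak. Both lines also had a peak with its summit at 525339, 1090 bp outside WRKY22 and so just beyond the 1 kb limit, with folds of 3.26 in the mutant and 4.47 in the wild type. WRKY22 was thus flanked by a shared site of higher fold than the sites counted for it. Its ChIP coverage was lower than at the counted shared site, at 6.65 against 8.02 times the mean in the mutant. In the wild type it was 13.0 against 15.1 times.

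WRKY47 (AT4G01720), of group IIb, was the one shared gene whose site lay outside the gene. On chromosome 4 its mutant peak spanned 744099 to 744275, had a fold of 4.19 and kept its summit 628 bp from the gene. The wild-type peak ran from 743971 to 744365, with a fold of 4.70 and its summit 660 bp away. This site stood high in both lists, at percentile 97.3 of the mutant folds and 98.2 of the wild-type folds, and had the highest −log10 q of all wild-type peaks at WRKY genes (67.1).

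WRKY70 (AT3G56400), a group III factor at the junction of salicylic acid and jasmonate signalling, had a mutant peak spanning 20909111 to 20909389 of chromosome 3, where the fold was 3.11. The wild-type peak there, from 20909175 to 20909381, had a fold of 1.85. The summits lay 51 bp apart, the widest gap of the 7 shared sites. A wild-type summit 1059 bp outside the gene (fold 2.54) missed the limit and was nearer to AT3G56390.

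**Figure D2:**
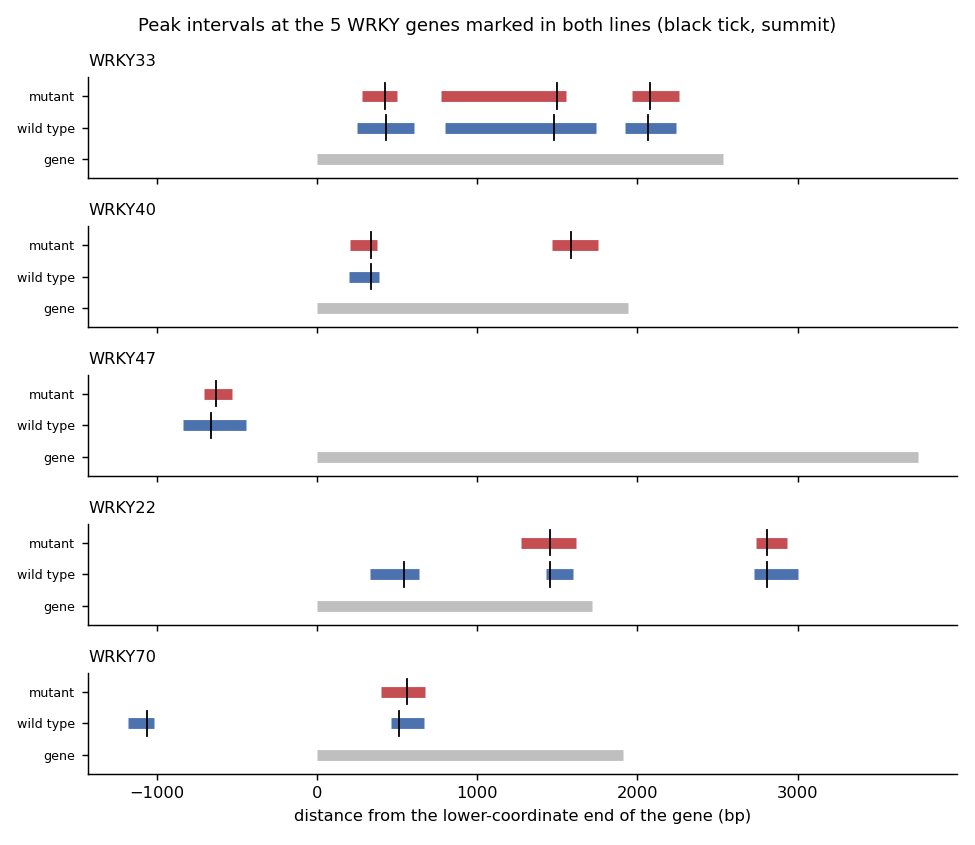
Peak intervals at the 5 WRKY genes marked in both lines, in bp from the lower-coordinate end of each gene; mutant peaks lie above wild-type peaks and the gene, and black ticks are summits. The 3 WRKY33 sites coincide in both lines, and the mutant peak at the higher end of WRKY40 has no wild-type peak.

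The signal behind these shared sites differed between the lines in both the ChIP and the control. ChIP coverage and the control level of the call were solved from the deposited fold and p-value of each peak. They are given relative to the mean of the ChIP call and to the genome background of the control. Over all peak and gene pairs the lowest solved control level was 1.00 times background in both lists. A level of 1.00 can therefore stand for control coverage below background. ChIP coverage at the summit was lower in the mutant at 6 of the 7 sites, with a median of 7.63 times the mean in the mutant and 14.3 times in the wild type. WRKY70 went the other way, with 7.63 times in the mutant and 4.84 times in the wild type. The control level was lower in the mutant call at all 7 sites, with a median of 2.63 times background in the mutant call and 5.99 times in the wild-type call. At WRKY40 the control stood at 3.74 times background in the mutant call and 13.1 times in the wild-type call, and at the first WRKY33 site at 1.00 times in the mutant call and 4.36 times in the wild-type call.

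The same held for most shared peaks of the genome. Over all 293 overlapping peak pairs the control was lower in the mutant call in 88.1% and the ChIP coverage in 80.9%. The mutant-to-wild-type ratio of control levels had a median of 0.300 at the WRKY sites (range 0.230 to 0.912) and 0.575 over all pairs. Its lowest value came from the first WRKY33 site, where the mutant level of 1.00 times may stand for less. The ratio of ChIP coverage had a median of 0.532 at the WRKY sites and 0.711 over all pairs. The higher mutant folds at the shared sites of WRKY22, WRKY33 and WRKY40 stand beside lower ChIP coverage and lower control levels in that call. WRKY70 differed, with ChIP coverage of 7.63 times in the mutant and 4.84 times in the wild type. Its control levels were close, at 2.36 times background in the mutant call and 2.59 times in the wild-type call. The part of the control in the folds was not tested.

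**Figure D3:**
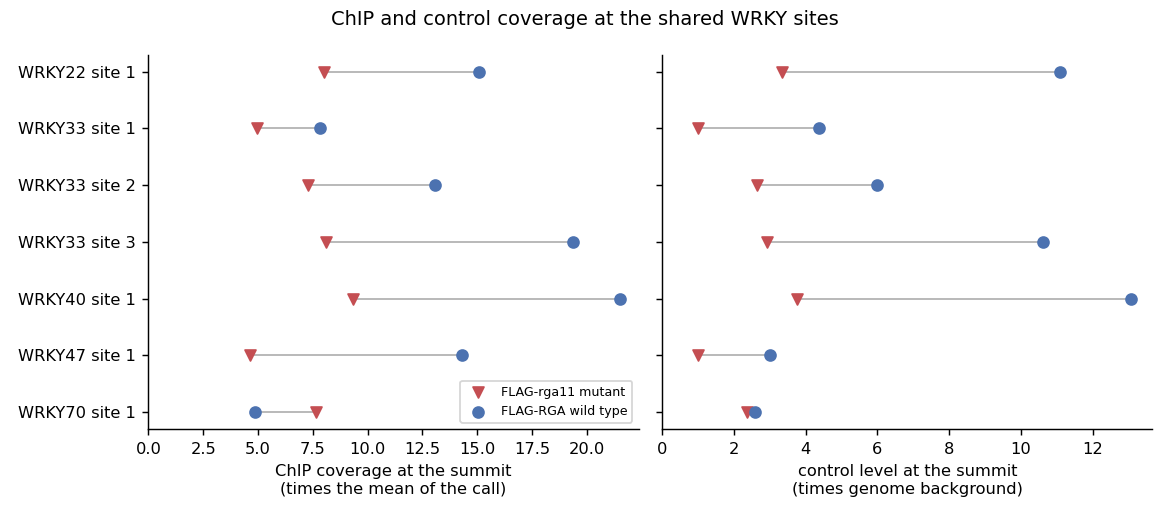
ChIP coverage (left, times the mean of the call) and control level (right, times genome background) at the 7 sites of WRKY genes shared by the mutant and the wild type, numbered along each gene. The mutant control level lies left of the wild-type level at every site, and the mutant ChIP coverage does so at every site but WRKY70.

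The 23 wild-type-marked genes held 28 peaks, which fell into 17 inside the gene (60.7%) and 11 outside it. Of all wild-type pairs of a peak and a coding gene within 1 kb, 53.2% lay inside. Inside peaks had low folds of 1.36 to 2.39 (median 1.93) and a median control level of 3.81 times background. Outside peaks had folds of 2.18 to 4.70 (median 3.04) and a median control level of 1.09 times background. Over all coding genes inside peaks had a median fold of 2.22 and a median control level of 1.84 times background, and outside peaks 2.46 and 1.57 times. Both kinds of site in WRKY genes thus stood further apart in fold and in control level than in the whole list. Control signal exceeded 5 times background at 7 of the 28 peaks (25%), all inside WRKY15, WRKY22, WRKY33 or WRKY40, against 6.82% of all wild-type pairs of a peak and a coding gene within 1 kb.

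In the mutant, 7 of the 8 peaks lay inside a WRKY gene (87.5%), against 68.3% of all mutant peak and gene pairs, and none had a control over 5 times background, against 26.1% of all. Their folds ran from 2.35 to 4.47 with a median of 2.90, beside a median of 2.67 over all those pairs.

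**Figure D4:**
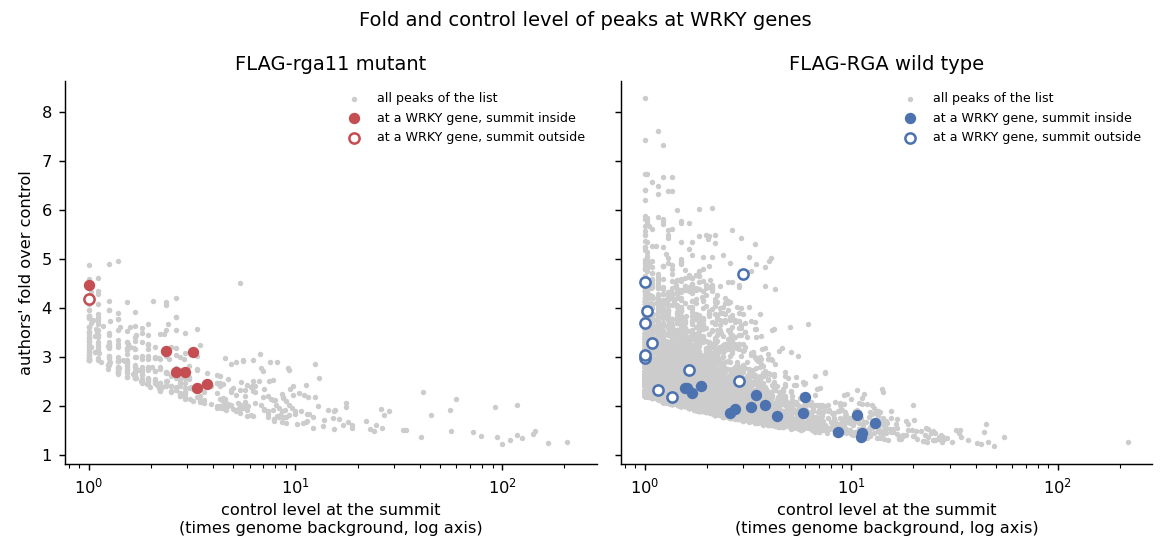
The authors' fold (y axis) against the control level at the summit (x axis, times genome background, log axis) for mutant peaks (left) and wild-type peaks (right); grey points are all peaks of the list and coloured points those at WRKY genes, filled for summits inside the gene. Wild-type summits outside WRKY genes sit at folds of 2.18 to 4.70, and those inside at 1.36 to 2.39 and reach a control level of 13.1 times background.

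Group IId, whose proteins include calmodulin-binding members, was marked mainly inside the genes in the wild type. Of its 8 peaks 7 lay inside (87.5%), against 53.2% of all wild-type peak and gene pairs. WRKY7 held 2 summits, 145 and 284 bp from the nearer end (folds 2.39 and 2.21), and WRKY15, a regulator of growth under osmotic stress, held 2 with folds of 1.86 and 1.46. The pair WRKY11 and WRKY17, which restrain basal resistance to bacteria, had 1 summit each inside the gene, with folds of 2.01 and 2.35. WRKY21 had 1 at 182 bp from an end (fold 2.37). WRKY39 was the exception, with its summit 732 bp outside (fold 3.04) and CLPS3 as the nearer gene. Control levels of the 8 peaks ran from 1.00 to 8.64 times background, and the highest were the 5.85 and 8.64 times at WRKY15. In the mutant the nearest summit to a group IId gene lay 1426 bp from WRKY15 (fold 3.14), and those to WRKY39 and WRKY17 lay 4758 and 8390 bp away.

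Group IIc showed the opposite placement, with all 4 of its wild-type summits outside the gene. Over all wild-type peak and gene pairs 53.2% lay inside, and placement on so few peaks was not tested. WRKY28, an activator of salicylic acid synthesis, had its summit 751 bp away (fold 2.72). WRKY50 and WRKY51, which take part in salicylic acid repression of jasmonate responses, had theirs 935 and 290 bp away (folds 2.98 and 3.29), and AT5G26180 was the nearer gene to the WRKY50 summit. WRKY8 had a summit 659 bp away (fold 2.18). Control levels at these 4 were low, from 1.00 to 1.63 times background.

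In the remaining groups the genes marked in the wild type alone had summits of both kinds. WRKY1 (ZAP1, group I) had the highest fold among them, 4.53 at 112 bp outside the gene, with the control at background. WRKY27 (IIe), which affects bacterial wilt symptoms, followed with 3.93 at 390 bp, and WRKY63 (ABO3, III), an abscisic acid and drought regulator, with 3.69 at 405 bp. WRKY26 (I), a heat-response factor, had 2.50 at 315 bp with PRA1.B6 as the nearer gene, and WRKY44 (TTG2, I), which acts in trichomes and seed coats, had 2.31 at 840 bp with ADK nearer. Among genes marked in the wild type alone, the summits inside the gene were those of WRKY4 (I, 2.27), the senescence regulator WRKY53 (III, 1.97) and WRKY69 (IIe, 1.93). Across all wild-type WRKY peaks, 4 of 28 had another coding gene nearer.

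**Figure D5:**
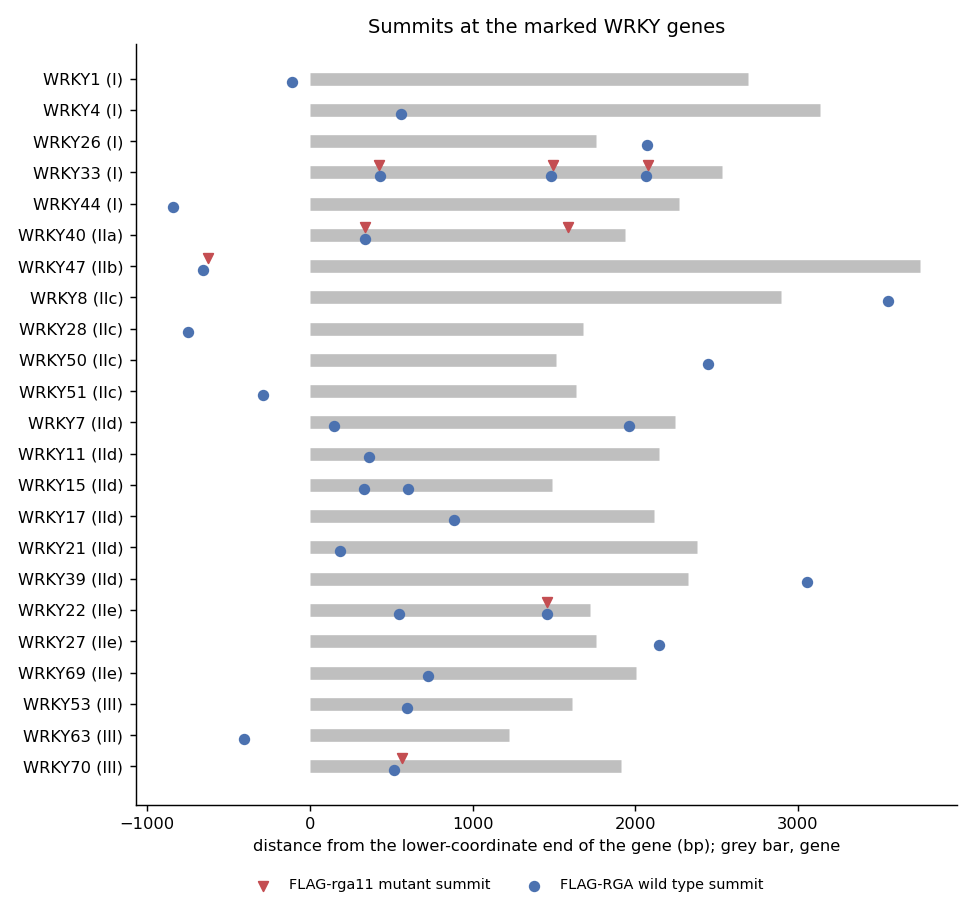
Summits within 1 kb of the 23 marked WRKY genes, in bp from the lower-coordinate end of each gene (grey bars are the genes, with the WRKY group in parentheses); triangles are mutant summits and circles wild-type summits. Group IIc summits all lie outside the genes, and group IId summits lie inside except at WRKY39.

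Of the members, 46 had no mutant summit and 28 no wild-type summit. The nearest mutant summit to those without one lay between 1426 and 630943 bp away (median 112496 bp), and the nearest wild-type summit between 1254 and 67841 bp (median 7985 bp). Just inside the 1 kb limit in the wild type was WRKY50 at 935 bp, and just outside were WRKY61 at 1254 bp (fold 3.82) and WRKY18 at 1262 bp (fold 4.22, −log10 q of 34.1). WRKY13 followed at 1660 bp (3.95). WRKY18 acts together with WRKY40 and WRKY60, so the 3 group IIa genes differed: WRKY40 was marked inside, WRKY18 had a strong wild-type site just beyond the limit, and the nearest to WRKY60 lay 18411 bp away. Of the 28 members without a wild-type summit, 12 had one between 2 and 10 kb away, among them WRKY25 (2584 bp) and WRKY75 (2798 bp). The other 13 lay over 10 kb from any wild-type summit. These included WRKY29 (12112 bp), which acts with WRKY22 downstream of flagellin, and WRKY54 (24502 bp), which acts with WRKY70. Those 4 genes were picked out after their distances were seen.

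Stricter calls left fewer members, in places a single gene. Counting summits inside the gene, 4 of 51 members were marked in the mutant (1.22% of all coding genes), 12 of 51 in the wild type (13.2%) and 4 of 51 in both (0.834%). When a −log10 q of at least 10 was required, 1 member was marked in the mutant (0.339% of all coding genes), 9 in the wild type (6.54%) and 1 in both (0.175%). WRKY40 was the mutant-marked gene there and the 1 in both, but its mutant and wild-type peaks at that threshold lay at different sites. When at least 5 was required, 3 members were marked in both (0.732%). In the upper 50% of each list by fold, 11 members were marked in the wild type (11.7%) and 1, WRKY47, in both (0.339%). With the control at most 5 times background, 3 were marked in both (0.791%).

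The call of the mutant rested on a lower background. With wild-type ChIP and control coverage rescaled to the background of the mutant call and held to the lowest p of the mutant list, 11 of the 23 wild-type-marked WRKY genes kept a peak that passed (21.6% of 51), and so did 7.99% of all coding genes. Of the members 3, and of all coding genes 0.802%, were then marked in both. Of these 11 genes WRKY33, WRKY40 and WRKY47 had a mutant summit and 8 had none: WRKY1, WRKY7, WRKY15, WRKY26, WRKY27, WRKY28, WRKY51 and WRKY63. The wild-type peaks at the other 12 did not pass under this rescaling, though WRKY22 and WRKY70 among them had mutant peaks. For the remaining 10 the mutant list alone does not tell a loss of marking from a signal below its threshold. For the 8 genes named above a loss was not tested either, with 1 library per line and an unsettled mutant control. The rescaling keeps the control levels of the wild-type call, which were higher than those of the mutant call at all 7 shared WRKY sites, so it is approximate.

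Genes that act with the WRKY factors in defence were also counted. Their list, too, was chosen with earlier results of these data known, so the shares only describe it. Of 23 such genes 3 were marked in the mutant (13.0%, 2.78 to 33.6) and 14 in the wild type (60.9%, 38.5 to 80.3), beside 1.79% of all coding genes in the mutant and 23.2% in the wild type. Of the 14, 4 passed at the coverage of the mutant call (17.4% of 23, against 7.99% of all coding genes). At a −log10 q of at least 10 in the wild type there were 3 (13.0%, against 6.54%). Among MAP kinase cascade genes, which activate WRKY33 and WRKY22, the mutant marked MPK3 (folds 3.19 and 3.46) and MEKK1 (2.65), and the wild type marked MPK3 (1.78 and 1.79), MKK4 (2.43 and 2.02) and MKK5 (1.74). MPK4, MPK6, MPK11, MKK1 and MKK2 had no summit in either list. MPK3 encodes the kinase that phosphorylates WRKY33, and its wild-type summit near the higher end carried a control of 10.4 times background.

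The VQ proteins, which bind WRKY factors, included SIB1, marked in the mutant (3.87) and in the wild type (2.06 and 2.24), whereas SIB2 (2.33 and 1.98) and MKS1 (2.18) had a summit in the wild-type list and none in the mutant list. Wild-type summits were also found at the receptor and receptor-kinase genes FLS2 (2.73), BAK1 (2.71) and BIK1 (1.95). The salicylic acid regulators PAD4 (2.47), EDS1 (2.35) and NPR1 (1.85) had them as well, as had the WRKY target genes PR1 (2.91) and PAD3 (2.65). None of these 8 was marked in the mutant, where 1.79% of all coding genes were. The lack of a mutant summit therefore does not set these genes, SIB2 or MKS1 apart. Neither list held a summit at CERK1, ICS1 or FRK1.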

How the data were processed

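Chromatin from seedlings fixed with 1% formaldehyde for 20 min was incubated for 2 h, per the labels' protocols. Per the submitters' processing notes, the build was TAIR10 and the tools included deepTools 3.1.3, MACS2 2.2.7.1, Bowtie2 2.4.5 and Trimmomatic 0.39. The authors deposited 1 peak list per tagged line. Each peak has a deposited fold, the ratio of ChIP coverage to the control level of the call, and a −log10 p and −log10 q. The deposited score follows from q and was not used. The lists hold part of the numbered peaks, for a reason the sources do not state. Control libraries entered only through these calls.

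Gene names and lengths came from RefSeq (TAIR10.1), whose nuclear chromosomes were taken to share coordinates with TAIR10. It gives neither strand nor sequence, so gene starts, promoter motifs and W boxes, which the design listed, were not analysed here. Fragments and control levels were solved from fold (pseudocount 1) and p, to within 0.001 of −log10 p for 503 of 505 mutant and 6115 of 6116 wild-type peaks and all 36 peaks at WRKY genes; the solver was tested on simulated data. No p-value was computed for any comparison of lines or gene lists. Peak p-values were recomputed only for the rescaling of wild-type peaks to the mutant call. Members, lists and groups were chosen with earlier results of these data known. Named genes were all marked members and marked pathway genes, with unmarked members by distance. Alternatives changed the flank, assignment, threshold, control limit and overlap. Computations used Python 3.11.15 with numpy 2.4.6, pandas 2.3.3 and scipy 1.17.1.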

Additional observations from a re-analysis of the deposited data

How the results depend on the processing

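With 1 library per group and no replicate numbers, no library could be left out. No paired analysis was possible because each group has 1 library. The count of marked WRKY genes (5 in the mutant, 23 in the wild type, 5 in both) stayed within 1.5 times of these values in 8 of 9 alternatives for the mutant, 6 of 10 for the wild type and 5 of 10 for both. The share of WRKY genes over that of all coding genes was 4.46 to 9.41 times in the mutant and 1.68 to 2.7 times in the wild type over the alternatives run, and in the mutant it rested on 1 gene at a −log10 q of 10 or more. At a −log10 q of 10 or more, 1 member was marked in the mutant, 9 in the wild type and 1 in both, and of the pathway genes 1 in the mutant and 3 in the wild type. At 5 or more, 3 members were marked in both. Counting summits inside the gene only, the wild type had 12. In the upper 50% of each list by fold it had 11, with 1 in both, and 6 pathway genes. With a control at most 5 times background, 3 were in both. At the coverage of the mutant call, chosen after seeing the data, the wild type had 11 members and 4 pathway genes, with 3 members in both. The overlap of mutant peaks at WRKY genes was 7 of 8, against 56.6% of all mutant peaks, and both shares dropped in stricter settings. It was 0 of 1 at a −log10 q of 10 or more, against 32.7% of all mutant peaks kept there. In the upper 50% by fold it was 1 of 6 (against 24.9%). With the control limit it was 3 of 8 (against 39.8%), and at mutant coverage 4 of 8 (against 35.0%). In each of these settings fewer peaks were compared by construction. Group IId had 5 of 6 wild-type-marked genes under the control limit (22.0% of all coding genes) and 3 of 6 in the upper 50% by fold (11.7%). It had 2 of 6 at mutant coverage (7.99%) and 1 of 6 at a −log10 q of 10 or more (6.54%).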

Other observations

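The list of 51 WRKY genes does not hold the whole family. A further 19 coding genes carry a WRKY symbol in the gene table, and none of them was marked in the mutant (0%, up to 17.6%). In the wild type 2 of the 19 (10.5%, 1.30 to 33.1) were marked, WRKY45 (fold 2.52) and WRKY19 (2.43), which were named after their values were seen. Over all 70 genes with a WRKY name, 5 (7.14%) were marked in the mutant and 25 (35.7%) in the wild type, so the share among the listed members is higher than in the family at large. Over all coding genes 1.79% were marked in the mutant and 23.2% in the wild type. The intervals of the 19 unlisted genes include these shares, so they were not told apart from the background. The shares of the listed members lay above it.

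Other transcription factor families were counted by symbol, as a comparison chosen after seeing the data. Of 21 ERF genes, ethylene-response-type factors, 6 (28.6%) were marked in the mutant and 15 (71.4%) in the wild type. Of 81 NAC genes 2 (2.47%) were marked in the mutant and 22 (27.2%) in the wild type, and of 115 MYB genes 2 (1.74%) in the mutant and 16 (13.9%) in the wild type. Beside 1.79% of all coding genes in the mutant and 23.2% in the wild type, the NAC and MYB shares in the mutant and the NAC share in the wild type were near the background, and the MYB share in the wild type was below it. The listed WRKY genes lay between the ERF genes and the NAC and MYB genes in both lists, and no difference among the families was tested.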
